A study of Mus musculus with 14 samples.

Results

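The miR-30 family was followed over both arms of its hairpins in small RNA libraries from mouse macrophage exosomes and from lysates of the macrophages. Its 9 lines were taken by name from a table of 1250 lines of mature miRNAs: mmu-miR-30a-5p, mmu-miR-30b-5p, mmu-miR-30c-5p, mmu-miR-30d-5p and mmu-miR-30e-5p from the 5p arms, and mmu-miR-30a-3p, mmu-miR-30c-2-3p, mmu-miR-30d-3p and mmu-miR-30e-3p from the 3p arms (the species prefix is left out below). There were 14 libraries in 4 groups: exosomes of IL4-stimulated macrophages (4), exosomes of control macrophages (4), lysates of IL4-stimulated macrophages (3) and lysates of control macrophages (3). The controls are titled as wild type, all libraries carry bone marrow as their source and excised bone as their tissue, and the labels give no age, sex, IL4 dose or time. Exosomes were small vesicles purified from cleared culture supernatant on an OptiPrep density gradient. The labels do not say whether the libraries of a group came from separate mice or cultures, so every p-value here describes library-to-library spread, part or all of which may be technical.

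The family is one of the most abundant and conserved groups of mammalian miRNAs. A mature miRNA sits in an Argonaute protein and finds messenger RNAs mainly through its seed, bases 2 to 8 from its 5′ end, so arms that share a seed share most predicted targets. In mice miR-30c is known to lower lipoprotein secretion from the liver by acting on Mttp, and miR-30 members are known in human cells to act on BECN1, which is needed for autophagy, and on DLL4, a Notch ligand of endothelial cells. IL4 is a cytokine that drives macrophages towards the alternatively activated state.

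The mature sequences are shown because they separate the family into 3 seed groups and show how nearly alike some lines are. RefSeq, with GRCm38.p6 coordinates, gave a mature sequence for 6 of the 9 lines. The capitals mark the seed.

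miR-30a-5p: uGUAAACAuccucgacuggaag

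miR-30e-5p: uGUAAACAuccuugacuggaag

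miR-30c-5p: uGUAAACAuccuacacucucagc

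miR-30a-3p: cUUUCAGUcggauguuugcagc

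miR-30e-3p: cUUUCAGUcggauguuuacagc

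miR-30c-2-3p: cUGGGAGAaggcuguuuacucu

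The 3 printed 5p arms share the seed GUAAACA. miR-30a-5p and miR-30e-5p differ by the single substitution C13U, counted from the 5′ end, while miR-30a-5p and miR-30c-5p differ at 5 positions (C13A, G14C, G18C, G19U and A20C). On the other arm miR-30a-3p and miR-30e-3p share the seed UUUCAGU and differ by G18A alone, and miR-30c-2-3p has the seed UGGGAGA. A read with 1 error, or a trimmed read, could therefore be placed on the wrong line of the pairs that differ by 1 base. The sources used here do not give how such reads were assigned. No sequence was at hand for miR-30b-5p, miR-30d-5p and miR-30d-3p, so how nearly they match other lines was not counted. The same misplacement could affect them, also between miR-30a-5p and miR-30d-5p.

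The genes of the printed lines form neighbouring pairs on chromosomes 1 and 4. No coordinates were at hand for the genes of miR-30b and miR-30d. Mir30a (chr1:23272269-23272339, plus strand) lies 19361 bases from Mir30c-2 (chr1:23291701-23291784, plus strand), which overlaps an exon of the long non-coding RNA gene Gm27028. Mir30c-1 (chr4:120769534-120769622, minus strand) and Mir30e (chr4:120772606-120772697, minus strand) lie 2983 bases apart in introns of Nfyc, which encodes a subunit of the transcription factor NF-Y. The hairpins of the pair that differ by 1 base on each arm are shown with both mature arms in capitals.

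Mir30a: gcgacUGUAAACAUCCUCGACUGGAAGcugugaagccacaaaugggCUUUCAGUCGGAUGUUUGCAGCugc

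Mir30e: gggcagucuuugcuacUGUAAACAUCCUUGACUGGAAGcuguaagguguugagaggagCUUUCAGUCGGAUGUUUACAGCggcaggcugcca

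miR-30c-5p is made from both Mir30c-1 and Mir30c-2 and its counts cannot be divided between them. The line of miR-30f lies on the opposite strand of the Mir30e hairpin. Whether the counting used strand is not given, so a share of the reads of that place could belong to either.

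Exosome libraries held 28417 to 411671 counts and lysate libraries 3941480 to 6792079, so a single count weighed 2.43 to 35.2 CPM (a line's count over the library total, scaled to counts per 1000000) in exosomes and 0.147 to 0.254 CPM in lysates. All 6 listed myeloid miRNA markers were detected in every group, at 1.66 to 2.10% of counts in IL4 exosomes, 2.78 to 3.81% in control exosomes, 1.24 to 1.89% in IL4 lysates and 2.75 to 3.31% in control lysates. The exosome libraries of 25 January (replicate 1 of both groups) stood apart. Lines named miR-203 took 19.3% of the counts with IL4 and 9.28% in the control, against at most 3.53% in the other exosome libraries. The epithelial list used below holds miR-203-3p but not miR-203b-5p. In exosomes these lines had nearly the same mean log2 CPM (14.7 and 14.6). Because the 25 January libraries stood apart, results that use exosomes were also computed without that pair of libraries.

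miR-30d-5p dominated the family. It had 22546, 30665, 35111 and 36362 CPM in the IL4 exosomes of replicates 1 to 4 and 26287, 34387, 44793 and 32426 CPM in the control exosomes. In lysates it had 39178, 35789 and 35306 CPM with IL4 and 46647, 43980 and 47905 CPM in controls. It ranked between 2 and 10 of all lines in the exosome libraries and 4 in every lysate library, and the 25 January exosomes were the lowest of their groups.

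miR-30e-5p came next. Its level averaged 7528 ± 1913 CPM in IL4 exosomes and 9417 ± 1563 CPM in control exosomes (SD, n = 4 each), and 6667 ± 633 CPM in IL4 lysates and 8144 ± 735 CPM in control lysates (SD, n = 3 each). Below these members, the group means had the same order in IL4 exosomes as in lysates. In control exosomes the mean of miR-30a-5p (4491 CPM) lay above that of miR-30c-5p (4218 CPM), within their spread. In lysates miR-30c-5p followed, with 1851 ± 309 CPM with IL4 and 2211 ± 287 CPM in controls, then miR-30a-5p with 1012 ± 161 and 1512 ± 182 CPM, and miR-30b-5p with 889 ± 66.0 and 1243 ± 151 CPM (SD, n = 3 each). The lysate libraries of miR-30a-5p and miR-30b-5p overlapped in both treatments.

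In exosomes miR-30a-5p and miR-30c-5p were level within their spread. miR-30a-5p had 1939, 3416, 5072 and 2854 CPM in IL4 exosomes and 2041, 6050, 6838 and 3035 CPM in control exosomes, against 1192, 962 and 882 CPM in IL4 lysates and 1446, 1717 and 1372 CPM in control lysates. Every exosome library lay above every lysate library, and replicates 2 and 3 were the highest exosomes in both groups. miR-30c-5p averaged 3919 ± 943 CPM in IL4 exosomes and 4218 ± 553 CPM in control exosomes, and miR-30b-5p 1669 ± 372 and 2116 ± 294 CPM (SD, n = 4 each).

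The 3p arms were rarer by far. miR-30e-3p averaged 491 ± 130 CPM in IL4 exosomes, 514 ± 134 in control exosomes (SD, n = 4 each), 323 ± 39.6 in IL4 lysates and 428 ± 20.6 in control lysates (SD, n = 3 each). miR-30a-3p averaged 78.4 ± 42.2 CPM in IL4 exosomes, 111 ± 77.1 in control exosomes, 24.0 ± 5.31 in IL4 lysates and 32.7 ± 3.47 in control lysates, and rested on 1 to 36 counts in an exosome library. miR-30d-3p and miR-30c-2-3p were at the edge of detection in exosomes: over each group's libraries miR-30d-3p summed to 8 counts in IL4 exosomes, 3 in control exosomes, 192 in IL4 lysates and 305 in control lysates, and miR-30c-2-3p to 3, 4, 83 and 169 counts in the same groups.

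**Figure D1:**
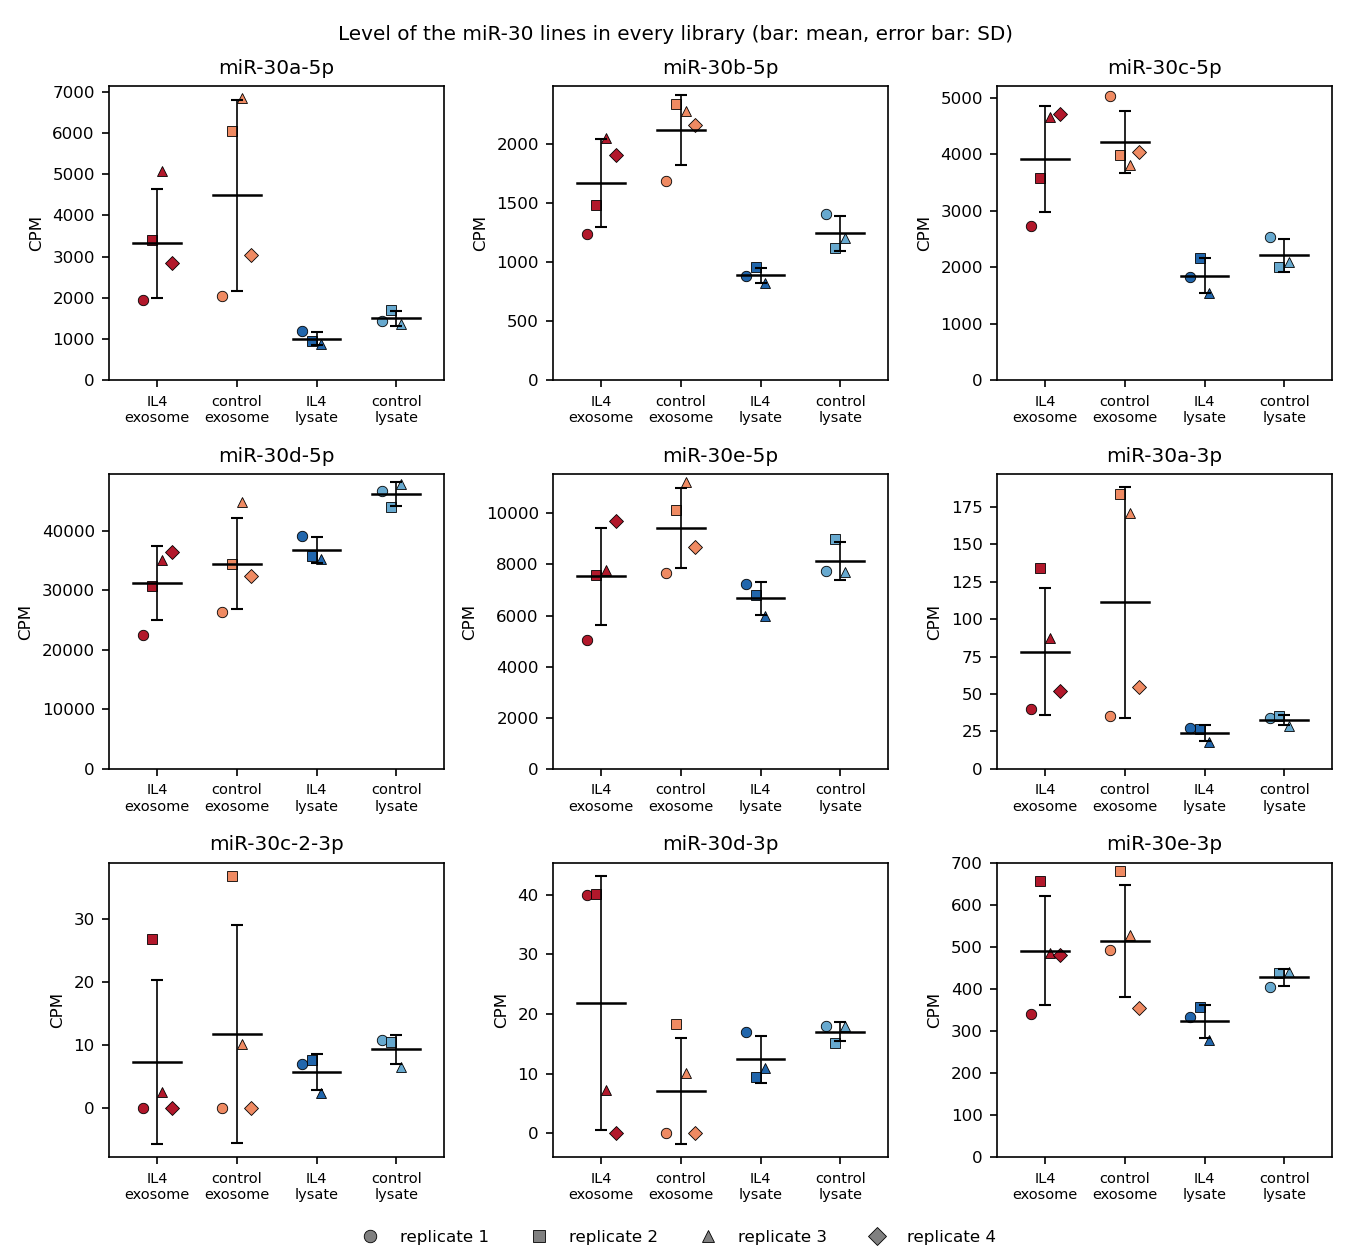
Level of each of the 9 miR-30 lines in CPM (linear axes) for every library, by group, with the mean as a bar, the SD as an error bar and a symbol for each replicate. miR-30d-5p is the highest line of the family in all 14 libraries, and every exosome library of miR-30a-5p, miR-30b-5p and miR-30c-5p lies above the lysate libraries of the same treatment.

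Summed, the 9 lines took 4.82 ± 1.03% of the counts in IL4 exosomes and 5.54 ± 1.12% in control exosomes (SD, n = 4 each), against 4.75 ± 0.295% in IL4 lysates and 5.98 ± 0.129% in control lysates (SD, n = 3 each). The family's make-up differed more between the compartments than its total did. miR-30d-5p was 65.7 ± 1.27% of the 5p counts in IL4 exosomes against 77.9 ± 1.29% in IL4 lysates, and 62.8 ± 2.20% in control exosomes against 77.9 ± 1.72% in control lysates. miR-30a-5p made up 6.88 ± 1.84% in IL4 exosomes against 2.14 ± 0.206% in IL4 lysates, and 7.84 ± 2.88% in control exosomes against 2.56 ± 0.367% in control lysates.

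**Figure D2:**
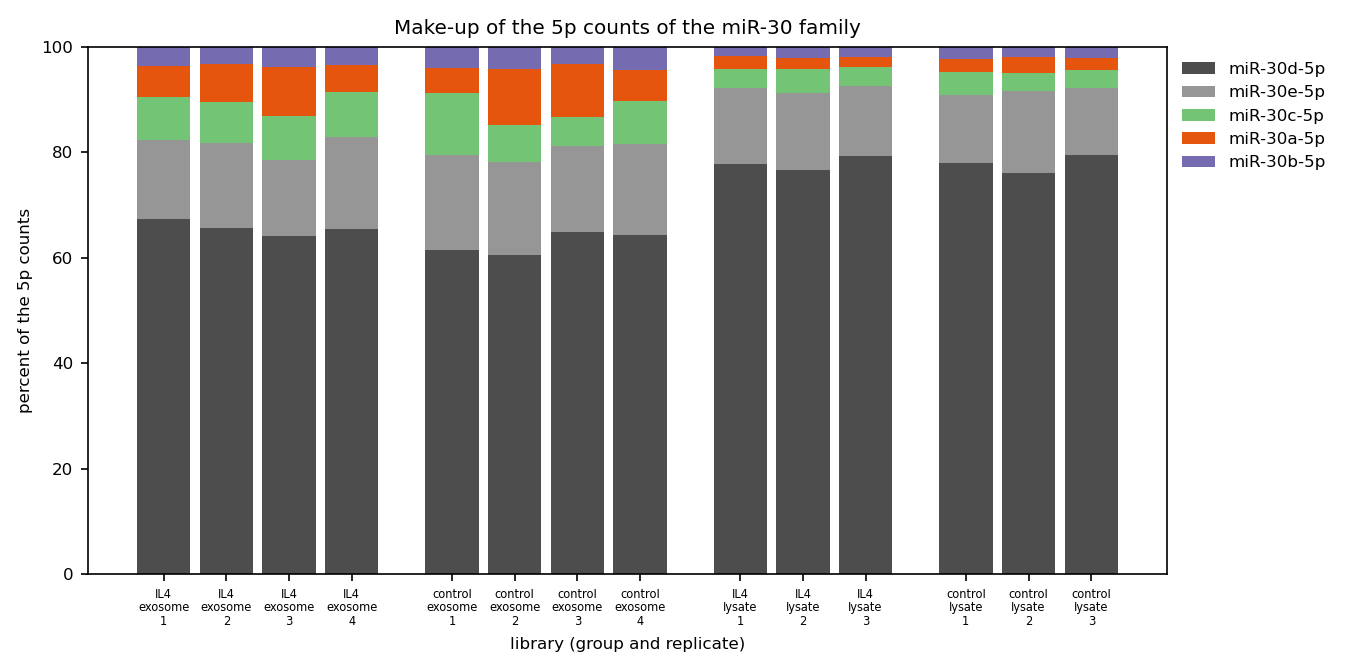
Percent of the 5p counts of the family taken by each of the 5 lines in every library (stacked bars, linear axis from 0 to 100). The miR-30d-5p segment ends between 60.5 and 67.3% in the 8 exosome libraries and between 76.1 and 79.5% in the 6 lysate libraries.

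Exosomes and lysates were compared first through ratios of the family's own lines within a library, which do not depend on how libraries are scaled. They do depend on how reads were divided between the lines, which is not known. Of each 100 miR-30d-5p counts, there were 8.60, 11.1, 14.4 and 7.85 miR-30a-5p counts in IL4 exosomes and 3.04, 2.69 and 2.5 in IL4 lysates. In controls there were 7.76, 17.6, 15.3 and 9.36 in exosomes and 3.10, 3.91 and 2.86 in lysates. The groups did not overlap in either treatment. The ratio was 3.74-fold higher in exosomes with IL4 and 3.62-fold higher in control exosomes (exact permutation test, two-sided, p = 0.0286 in each, the smallest that 4 against 3 libraries can give).

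The other 5p lines also stood higher against miR-30d-5p in exosomes, by less. The fold was 2.5 with IL4 and 2.60 in controls for miR-30c-5p, and 2.21 and 2.31 for miR-30b-5p. For miR-30e-5p it was 1.32 with IL4 and 1.56 in controls, with 24.0 ± 2.13 counts per 100 of miR-30d-5p in IL4 exosomes against 18.1 ± 1.06 in IL4 lysates, and 27.6 ± 2.09 in control exosomes against 17.7 ± 2.39 in control lysates (SD, n = 4 and 3). None of these groups overlapped, and each of these 6 tests gave the same smallest exact permutation p of 0.0286. A ratio to miR-30d-5p that separated upward was common, at 33.5% of the other lines tested with IL4 and 35.3% in controls.

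miR-30a-5p also stood higher against its near-copy miR-30e-5p. Per 100 miR-30e-5p counts there were 44.5 ± 15.1 in IL4 exosomes against 15.1 ± 1.23 in IL4 lysates, 2.83-fold (exact permutation p = 0.0286), and 45.6 ± 17.4 in control exosomes against 18.5 ± 0.644 in control lysates, 2.32-fold (exact permutation p = 0.0571; SD, n = 4 and 3). Neither pair of groups overlapped, where 26.4% of the other lines separated upward against miR-30e-5p with IL4 and 26.1% in controls. These ratios were chosen after the values were seen, 20 ratio tests were made over libraries, and the p-values are not adjusted for that number. With any 1 library left out, the log2 ratio of miR-30a-5p to miR-30d-5p stayed between 1.73 and 2.03 with IL4 and between 1.67 and 2.06 in controls.

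**Figure D3:**
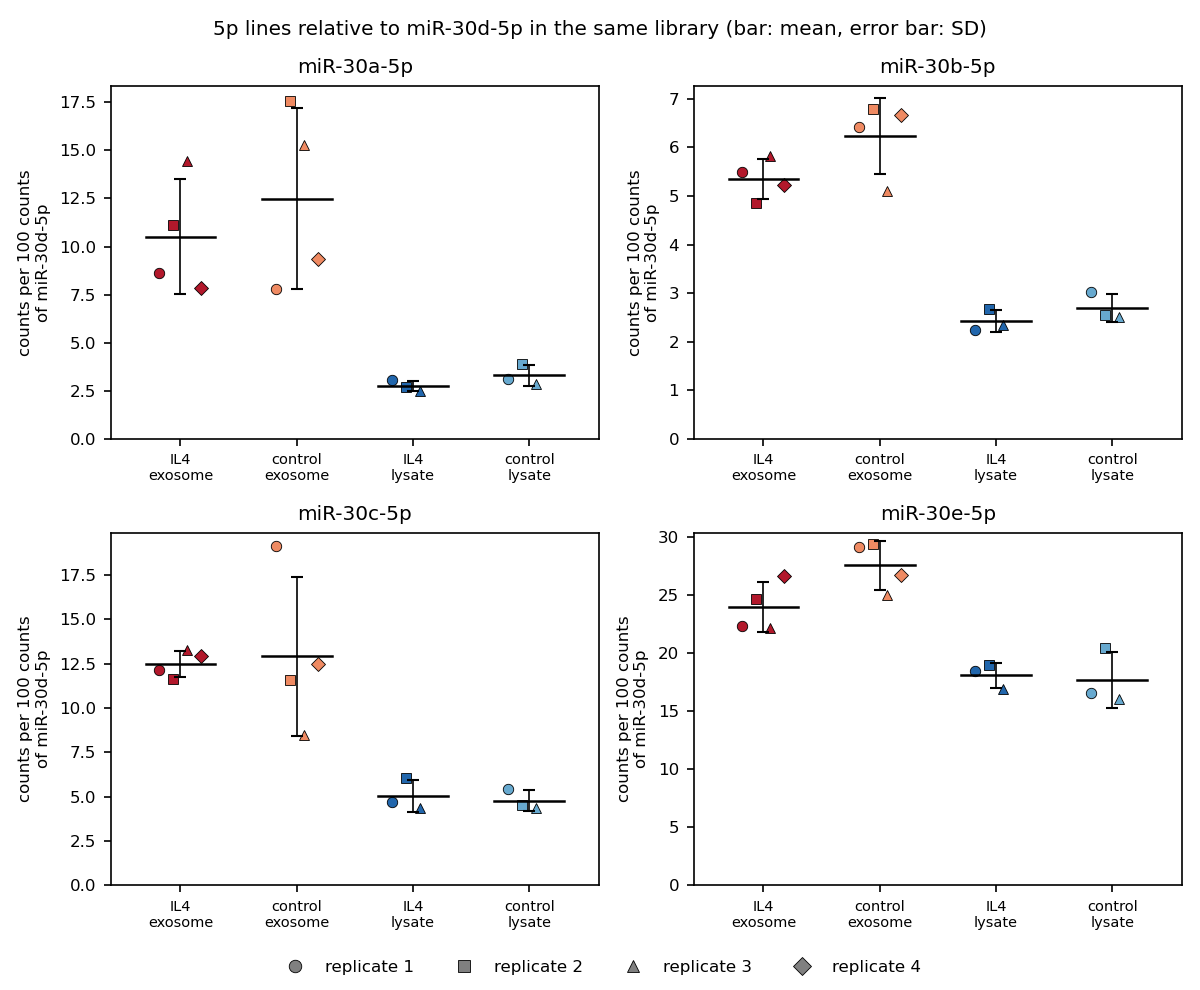
Counts of miR-30a-5p, miR-30b-5p, miR-30c-5p and miR-30e-5p per 100 counts of miR-30d-5p in every library (linear axes from 0), by group, with mean, SD and a symbol for each replicate. In each panel the exosome libraries lie above the lysate libraries, and for miR-30a-5p the log2 differences were 1.90 with IL4 and 1.86 in controls, with means of 10.5 in IL4 exosomes and 12.5 in control exosomes against 2.74 in IL4 lysates and 3.29 in control lysates.

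In the fit across all lines, edgeR's quasi-likelihood test with Benjamini-Hochberg adjustment over the 338 lines tested called a line at an adjusted p of at most 0.05, after TMM scaling, which sets a factor for each library from the bulk of its lines. Of the 9 lines, 7 passed the filter on low counts, and miR-30c-2-3p and miR-30d-3p did not. With IL4, 30.2% of all lines were called higher and 19.2% lower in exosomes. On the log2 scale miR-30a-5p rose by 1.02 (SE 0.35, adjusted p = 0.0239), and miR-30d-5p fell by 0.93 (SE 0.21, adjusted p = 0.00196). The 7 lines had a median log2 difference of 0.21, beside -0.01 over all lines. Values not called were -0.51 for miR-30e-5p (adjusted p = 0.0738), 1.04 for miR-30a-3p (adjusted p = 0.0925), 0.39 for miR-30c-5p, 0.21 for miR-30b-5p and -0.10 for miR-30e-3p.

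In controls, where 29.3% of lines were called higher and 21.6% lower in exosomes, the log2 level of miR-30d-5p fell by 1.23 (SE 0.21, adjusted p = 0.00024) and that of miR-30e-5p fell by 0.61 (SE 0.22, adjusted p = 0.0344). The log2 difference was 0.73 for miR-30a-5p (SE 0.35, adjusted p = 0.0906), 1.07 for miR-30a-3p (adjusted p = 0.082), -0.55 for miR-30e-3p (adjusted p = 0.108), 0.17 for miR-30c-5p and -0.02 for miR-30b-5p. The median of the 7 lines was -0.02, beside -0.18 over all lines. As 49.4% of all lines were called in one direction or the other with IL4 and 50.9% in controls, 2 called members of 7 in each comparison were no larger a share than over the table.

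These differences depended on the scaling. Scaling by library totals moved the median of all lines up by 0.70 with IL4 and 0.81 in controls, and then no miR-30 line was called lower while miR-30a-5p, miR-30b-5p, miR-30c-5p and miR-30a-3p were called higher in both comparisons. Against the median of all lines, the values changed little. miR-30d-5p stood at -0.92 with IL4 and -1.05 in controls under both scalings. miR-30a-5p stood at 1.03 and 0.91 under TMM and at 1.04 and 0.95 under library totals. Scaling shifts all lines of a comparison nearly alike, so this agreement was largely fixed in advance. In CPM, miR-30a-5p, miR-30b-5p and miR-30c-5p lay higher in all exosome libraries than in all lysate libraries of the same treatment, as did 28.7% of lines with IL4 and 27.2% in controls, and miR-30a-3p did so with IL4.

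Single libraries decided some calls. miR-30a-5p with IL4 had an adjusted p of 0.0603 by edgeR without IL4 lysate replicate 3 (log2 difference 1.14), and in controls it was called without control exosome replicate 1 (1.24, adjusted p = 0.00776). The control call of miR-30e-5p ended without control exosome replicate 1 (-0.26), 2 (-0.59), 3 (-0.41) or 4 (-0.59) and without control lysate replicate 2 (-0.43) or 3 (-0.59). miR-30d-5p was called without any 1 library in both comparisons. With IL4 its values then ran from -0.85 to -0.74, with an edgeR adjusted p of up to 0.0273. The value from all libraries, -0.93, lay outside that range. With IL4 the values of miR-30b-5p, miR-30c-5p and miR-30e-5p from all libraries also lay outside their ranges. The cause was not tested. Without both exosome libraries of 25 January, edgeR gave miR-30a-5p 1.14 with IL4 (adjusted p = 0.0106) and 0.93 in controls (adjusted p = 0.0279), miR-30d-5p -0.90 and -1.17, and miR-30e-5p -0.57 in controls (adjusted p = 0.0405), and the log2 ratio of miR-30a-5p to miR-30d-5p was 1.98 with IL4 and 2.06 in controls. Where miR-30a-5p and miR-30e-5p were summed as near-copies, the sum was not called (-0.05 with IL4 and -0.26 in controls). miR-30d-5p entered no such sum.

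**Figure D4:**
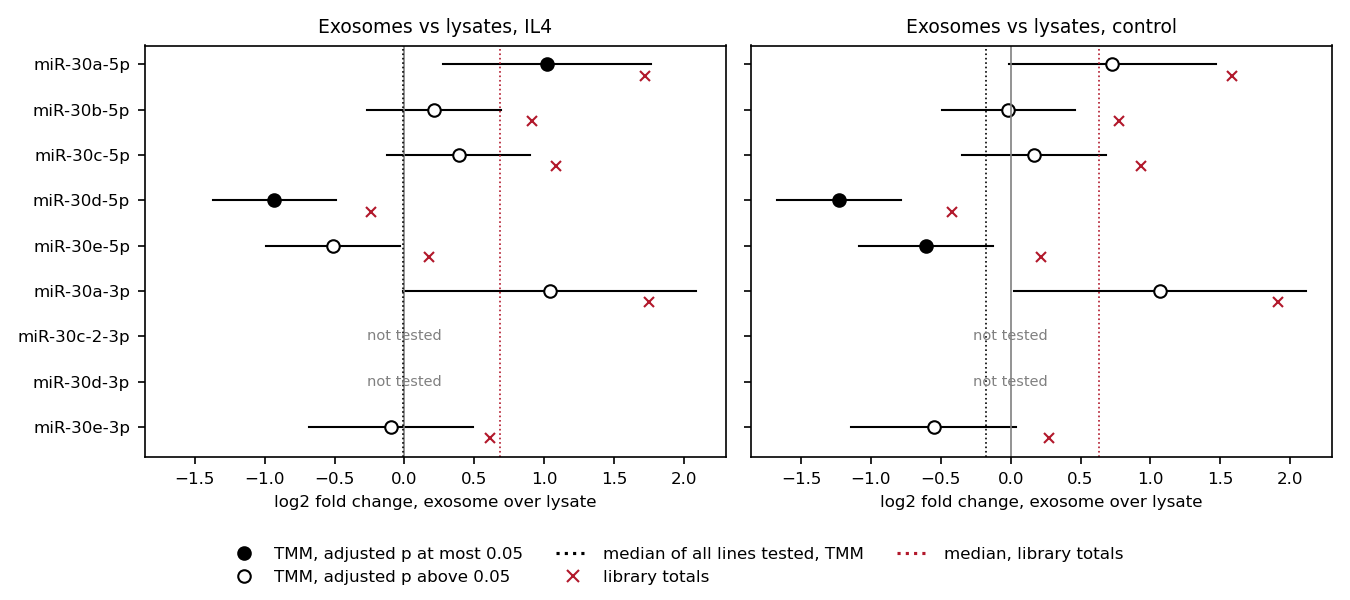
Log2 fold change of exosomes over lysates for each miR-30 line, with IL4 (left) and in controls (right). Circles and lines give the edgeR estimate with its 95% interval after TMM scaling (filled where the adjusted p is at most 0.05), crosses give library-total scaling, and dotted lines give the median of all lines under each. miR-30d-5p lies left of the median and miR-30a-5p right of it under both scalings, which move the lines and their median nearly together.

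Markers of several other cell types were higher in exosome libraries too. The endothelial list, both arms of miR-126a, took 0.410, 1.42, 1.59 and 0.696% of the counts in IL4 exosomes and 0.686, 2.75, 2.35 and 0.826% in control exosomes, against 0.00134 to 0.00326% in IL4 lysates and 0.00274 to 0.00339% in control lysates. Its exosome values were highest in replicates 2 and 3 of both groups, as were those of miR-30a-5p and of the myeloid, stromal, and liver and gut lists. The remaining lists did not share this order in both groups. In IL4 exosomes the erythroid list (2.52 and 3.05%) and the lymphocyte list (0.104 and 0.138%) were also highest in replicates 2 and 3. The epithelial and muscle lists were not. In control exosomes the erythroid (5.53%), lymphocyte (0.187%) and epithelial (4.89%) lists were highest in replicate 1, and the muscle list (0.336%) in replicate 4. The lymphocyte list took at most 0.00381% and the muscle list at most 0.00127% in any lysate. The stromal list took 0.414, 0.739, 0.620 and 0.356% in IL4 exosomes and 0.581, 0.794, 0.987 and 0.555% in control exosomes, against 0.247 to 0.364% in IL4 lysates and 0.361 to 0.451% in control lysates. The liver and gut list took 0.188 to 0.828% in IL4 exosomes and 0.134 to 1.30% in control exosomes, against at most 0.0549% in any lysate. The myeloid list took 1.66 to 2.10% in IL4 exosomes and 2.78 to 3.81% in control exosomes, against 1.24 to 1.89% in IL4 lysates and 2.75 to 3.31% in control lysates. The erythroid list (4 of 4 lines with counts) took 2.18 to 3.05% in IL4 exosomes and 2.95 to 5.53% in control exosomes against at most 0.0211% in any lysate. The epithelial list (7 of 7 lines with counts in exosomes) reached 10.5% in IL4 exosomes and 4.89% in control exosomes of 25 January against at most 0.0267% in lysates, where miR-205-5p was at 0. Their part in the exosome levels of the miR-30 lines was not tested, and more cells or vesicles of a type and more RNA in each cannot be told apart in bulk libraries. Exosome and lysate libraries also differed in depth and in the dates of their titles, which cannot be told apart from the compartment.

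Stimulation with IL4 was compared with control within each compartment. In exosomes, edgeR called 0.549% of the 182 lines tested. None of the 6 miR-30 lines that passed the filter was called, 0 had an unadjusted p under 0.05, and DESeq2 called 0. Without the 25 January pair edgeR also called 0. Their log2 changes were -0.26 (SE 0.37) for miR-30a-5p, -0.19 (SE 0.21) for miR-30b-5p, -0.17 (SE 0.22) for miR-30e-5p, 0.03 (SE 0.23) for miR-30c-5p, 0.01 (SE 0.22) for miR-30d-5p and 0.09 (SE 0.27) for miR-30e-3p. Their median of -0.08 lay beside -0.09 for all lines. The 95% interval ran from -1.09 to 0.56 for miR-30a-5p and from -0.47 to 0.49 for miR-30d-5p. In CPM, IL4 exosomes lay below control exosomes of the same title date on 4 of 4 dates for miR-30a-5p and miR-30b-5p. They did so on 3 of 4 for miR-30d-5p, miR-30e-5p and miR-30e-3p, and on 2 of 4 for miR-30c-5p, with overlapping groups. CPM is scaled by library totals, under which the median log2 change of all lines was -0.25. The share of all lines that lay lower on as many dates was not computed.

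In lysates, edgeR called 7.22% of the 443 lines tested, 5.87% higher and 1.35% lower. All 9 miR-30 lines passed the filter and none was called, 0 had an unadjusted p under 0.05, and DESeq2 called 0. All 9 log2 changes were negative, with a median of -0.27 beside 0.00 for all lines. They ran from -0.05 for miR-30c-5p to -0.56 for miR-30c-2-3p, and the change was -0.40 for miR-30a-5p (SE 0.19, 95% interval -0.84 to 0.03, adjusted p = 0.382) and -0.13 for miR-30d-5p (SE 0.13, 95% interval -0.44 to 0.17). Without IL4 lysate replicate 1 the value of miR-30c-5p was 0.031, and without control lysate replicate 2 that of miR-30e-5p was 0.013.

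CPM levels, which are scaled by library totals, gave lower IL4 lysates more often. The IL4 lysates lay wholly below the control lysates for miR-30a-5p, miR-30b-5p, miR-30d-5p, miR-30e-5p, miR-30a-3p and miR-30e-3p, 6 of the 9 lines, while 15.3% of all lines did so. For miR-30d-5p the means were 36758 ± 2110 CPM with IL4 and 46178 ± 2004 CPM in controls (SD, n = 3 each). Library-total scaling itself moved the median of all lines by -0.19 in lysates and -0.16 in exosomes, and under it no miR-30 line was called in either compartment.

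The ratios between members are free of this scaling. In lysates there were 16.5, 14.1 and 14.7 miR-30a-5p counts per 100 of miR-30e-5p with IL4 and 18.7, 19.1 and 17.8 in controls. These groups did not overlap, as was so downward for 4.52% of the other lines against miR-30e-5p, and the exact permutation p was 0.1, the smallest that 3 against 3 libraries can give. In exosomes miR-30e-5p stood at 22.3, 24.7, 22.2 and 26.7 per 100 of miR-30d-5p with IL4 and at 29.2, 29.4, 25 and 26.7 in controls, 0.869-fold, with overlapping groups (two-sided exact permutation p = 0.0571). Within title dates the IL4 ratio was the lower one on 4 of 4 dates, with the difference on 29 December below the digits printed, and the exact test of sign flips within dates, added after the values were seen, gave p = 0.125, the smallest that 4 pairs allow. The exact permutation p of the other 8 IL4 ratios ran from 0.114 to 1.

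**Figure D5:**
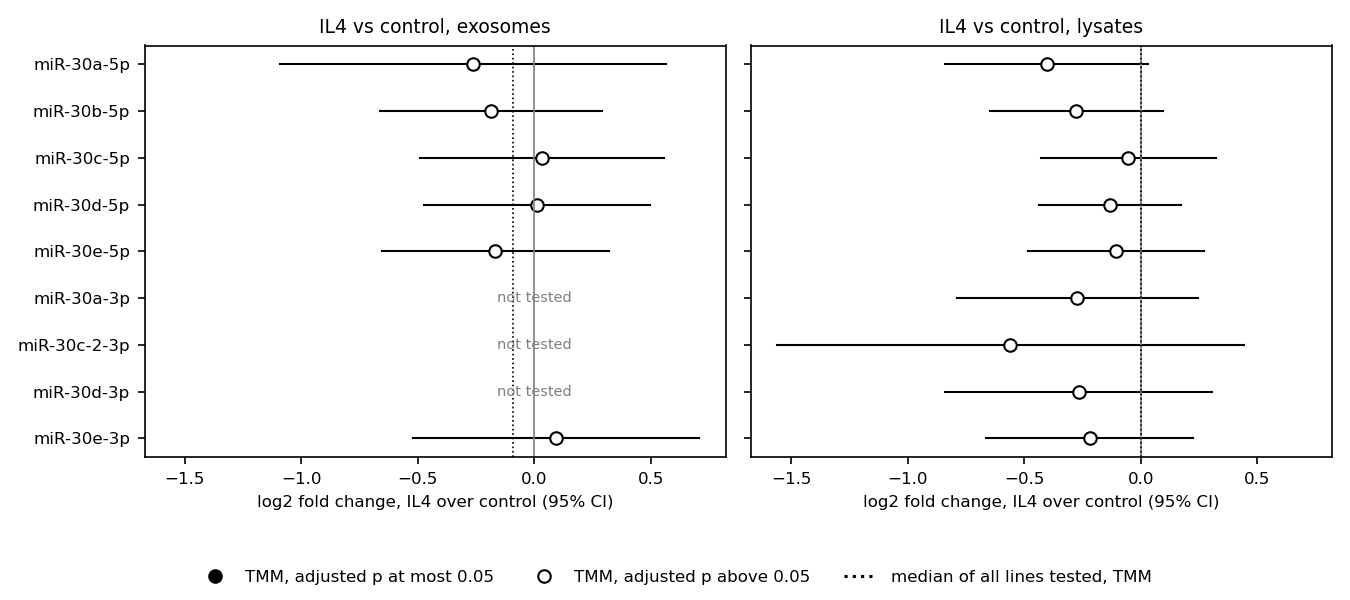
Log2 fold change of IL4 over control for each miR-30 line in exosomes (left) and lysates (right), as the edgeR estimate with its 95% interval after TMM scaling, the median of all lines tested as a dotted line. No line is called, and all 9 lysate estimates lie below 0.

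The IL4 effect was then compared between the compartments in 1 fit. Of the 338 lines 0% were called, and of the 7 miR-30 lines edgeR called 0, 0 had an unadjusted p under 0.05, and DESeq2 called 0. The difference, IL4 effect in exosomes minus that in lysates, ran from -0.03 for miR-30a-3p (SE 0.69) to 0.45 for miR-30e-3p (SE 0.39). For miR-30d-5p it was 0.30 (95% interval -0.33 to 0.92) and for miR-30a-5p 0.29 (95% interval -0.74 to 1.32).

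The balance of the arms was strongly towards 5p in all groups. With counts pooled over each group, miR-30a had 51.1 counts of its 5p arm for each of its 3p arm in IL4 exosomes, 39.6 in control exosomes, 42.7 in IL4 lysates and 46.3 in control lysates. For miR-30e the ratio was 15.7, 19.6, 20.8 and 19.1 in the same groups. For miR-30d it was 2874 in IL4 lysates and 2725 in control lysates, and in exosomes it rested on the 8 and 3 counts of miR-30d-3p and is not compared.

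No arm ratio of the family was called by limma with Benjamini-Hochberg adjustment in any of the comparisons, where the share of called hairpins was 4% for IL4 in exosomes, 6.76% for exosomes against lysates in controls and 0 in the others. The hairpins tested were miR-30a, miR-30d and miR-30e in lysates, miR-30e alone in exosomes, and miR-30a and miR-30e between compartments, and 0 of these tests had an unadjusted p under 0.05. The difference with the smallest p was that of miR-30e between exosomes and lysates with IL4, -0.45 on the log2 scale (SE 0.33, adjusted p = 0.472). The corresponding value was -0.06 (SE 0.33) in controls.

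Other lines with a family seed were few and rare. miR-30c-1-3p, which shares the seed of miR-30c-2-3p, had 174 counts over all 14 libraries, and miR-384-5p, which has the seed GUAAACA, had no line. Of the relatives by name, miR-30f had 195 counts over all libraries and its sequence starts 1 base later, which gives it the seed UAAACAU. In lysates, the only comparison they entered, miR-30c-1-3p, miR-30f and miR-30b-3p had log2 changes with IL4 of -0.27, -0.64 and -0.36, and edgeR called none (smallest unadjusted p = 0.138).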

How the data were processed

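Per the labels' protocols, supernatant was spun clear and the PerkinElmer NextFlex kit for small RNA gave the libraries. The authors deposited raw counts per mature miRNA in 1 table. Per the submitters' processing notes cutadapt and mm10 were used; the sources used here do not give the aligner, counter or strand setting. PCR reads are not independent molecules, and depth limits the exosome 3p arms most.

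The 9 lines and all lists were chosen with earlier results of these data known. Counts were fitted with edgeR 4.0.16 (filterByExpr, TMM, quasi-likelihood test, Benjamini-Hochberg over all lines tested, threshold 0.05), IL4 contrasts within each compartment and the others in 1 fit of all libraries. Arm ratios were log2 of the counts plus 0.5 and tested with limma 3.58.1. DESeq2 1.42.0 was an alternative. The edgeR fit was tested on simulated data. All 9 lines were named in every comparison, with seed partners of at least 10 counts.

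Dates in the titles pair IL4 and control libraries of a compartment. Over 136 lines, the deviations of same-date libraries correlated at 0.54, -0.00, 0.21 and 0.18 in exosomes (29 December, 25 January, 16 March, 5 April) and at 0.69, 0.30 and 0.50 in lysates (23 January, 14 March, 21 March). No 2 libraries of a group agreed within sampling noise.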

Additional observations from a re-analysis of the deposited data

Results flagged for a closer look

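Of 40 groups of 4 values examined, 1 held a library far from the others: miR-30c-2-3p in IL4 exosomes of replicate 2 stood at 26.8 CPM, and its gap to the next library was 0.909 of the group's range, above Dixon's 95% limit for 4 values. It rests on 2 counts, and the other libraries of the group had 0, 1 and 0. Chance flags about 1 in 20 groups.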

How the results depend on the processing

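No miR-30 line was called for IL4 in exosomes (16 alternatives), for IL4 in lysates (13) or for the difference of IL4 effects (21). With the title date as a replicate block these counts were 0, 0 and 0, while the lines called in lysates over the whole table numbered 50 against 32; miR-30a-5p in lysates then stood at -0.39 (edgeR, adjusted p = 0.233), and the block changed no miR-30 call. Over all lines, the alternatives called 0 to 12 for IL4 in exosomes (1 as reported), 2 to 50 for IL4 in lysates (32), 0 to 3 for the difference (0), 83 to 238 for exosomes against lysates with IL4 and 78 to 248 in controls (172 as reported). Filtered out, and so without a value, were miR-30a-3p with thinned lysates, miR-30c-2-3p and miR-30d-3p for IL4 in lysates under 1 fit of all libraries, and the miR-30a arm ratio between compartments at a minimum of 5 counts.

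For exosomes against lysates with IL4, 2 lines were called; the count was 4 with DESeq2 size factors, 5 with the DESeq2 Wald test, 4 with library totals, 1 with near-copies summed, 1 with no filter and 1 to 3 without 1 library. In controls, also 2, it was 3 with size factors (miR-30a-5p and miR-30a-3p gained, miR-30e-5p lost at adjusted p = 0.416), 5 with the Wald test, 4 with library totals, 1 with near-copies summed, 1 with only the groups compared, 4 without both exosome libraries of 25 January (an alternative chosen after seeing the data) and 1 to 3 without 1 library. miR-30d-5p was called in 13 of 15 alternatives with IL4 and 14 of 15 in controls, miR-30a-5p in 12 and 6, and miR-30e-5p in controls in 3; the exceptions for miR-30d-5p were library totals (-0.24 with IL4, -0.42 in controls) and, with IL4, lysates thinned to 64514 counts (-0.34). All 10 exosome-to-lysate ratios kept their direction, which was fixed in advance. As their groups did not overlap, neither leaving out libraries nor pooling counts could reverse them.

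The following log2 values changed sign, and the cause was not tested. A sum of near-copies is a different quantity from the line it is set against, here miR-30a-5p or miR-30c-5p. The sum of miR-30a-5p and miR-30e-5p held mostly miR-30e-5p, with 99789 counts against 15298 of miR-30a-5p in IL4 lysates. With IL4, exosomes over lysates: miR-30e-5p 0.18 with library totals and 0.020 with thinned lysates; miR-30e-3p 0.19 with size factors, 0.19 with the Wald test, 0.61 with library totals, 0.43 thinned and 0.049 with near-copies summed; miR-30b-5p -0.018 with no filter; the sum of miR-30a-5p and miR-30e-5p -0.050; the miR-30a arm ratio 0.028 weighted by counts. In controls: miR-30e-5p 0.21 and miR-30e-3p 0.28 with library totals; miR-30b-5p 0.38 with size factors, 0.38 with the Wald test, 0.77 with library totals, 0.54 thinned, 0.11 with near-copies summed, 0.22 with only the groups compared and 0.011 without the 25 January pair; miR-30c-5p -0.34 with no filter and -0.011 without that pair; the miR-30a-5p sum -0.26. For IL4 in exosomes: miR-30c-5p -0.11, miR-30d-5p -0.15 and miR-30e-3p -0.075 with library totals, and the miR-30c-5p sum -0.018. For the difference of IL4 effects: miR-30a-3p 0.072 with near-copies summed and 0.24 with no filter, and miR-30e-5p -0.031, -0.032 and -0.036 with size factors, Wald test and library totals.

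Without 1 library, the ranges that held both signs were, for IL4 in exosomes, -0.42 to 0.11 for miR-30a-5p, -0.18 to 0.037 for miR-30b-5p and -0.17 to 0.026 for miR-30e-5p; for IL4 in lysates, -0.19 to 0.031 for miR-30c-5p and -0.23 to 0.013 for miR-30e-5p; for exosomes over lysates, -0.070 to 0.32 for miR-30b-5p in controls, -0.10 to 0.20 for miR-30e-3p with IL4, -0.24 to 0.17 for the miR-30a arm ratio with IL4 and -0.18 to 0.044 for that of miR-30e in controls; and for the difference of IL4 effects, -0.35 to 0.31 for miR-30a-3p, -0.067 to 0.55 for miR-30a-5p and -0.13 to 0.28 for miR-30e-5p.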

Other observations

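Between libraries of the same group, miR-30d-5p and miR-30a-5p had different nearest lines. Over the 14 libraries, on log2 CPM less the group mean and among 135 lines with at least 100 CPM in every group, the lines most like miR-30d-5p were miR-30e-5p (Pearson r = 0.91), miR-16-5p (0.88), miR-674-3p (0.85), miR-22-5p (0.84) and miR-30b-5p (0.83). Those most like miR-30a-5p were miR-139-5p (0.85), miR-421-3p (0.84), miR-374c-5p (0.82), miR-374b-5p (0.82) and let-7d-3p (0.81). Within the family miR-30a-5p had an r of 0.74 with miR-30d-5p, 0.66 with miR-30e-5p and 0.64 with miR-30b-5p. Its r was 0.54 with miR-30e-3p and 0.01 with miR-30c-5p. miR-374c-5p and miR-374b-5p had the same log2 change with IL4 (-0.0713) and the same mean log2 CPM (9.87) in exosomes. They are therefore not separate measurements there. The points share library depth and scaling, and these values are descriptions.

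The short motifs GGAG and CCCU, described in other cells for loading of miRNAs into vesicles, were searched on the RNA strand of the mature sequences. GGAG was in 1 of the 6 family sequences, miR-30c-2-3p, and in 12.9% of 1053 mouse mature miRNAs with a sequence; CCCU was in 0 of the 6 and in 11.4%.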
